A study of Homo sapiens with 24 samples.

Results

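The genes of the LIN28B and microRNA switch were examined for binding of S100A8 and S100A9. They were taken from an annotation of the human genome (GENCODE, build hg19) as 7 of the 23128 protein-coding and microRNA genes considered, namely LIN28B, HMGA2, MIR21, VMP1, MIR181B1, CYLD and DICER1. A peak was assigned to a gene when its summit, the position of highest signal, lay in the gene or within 50 kb of it and its −log10 q, the caller's confidence score, was at least 7. In all, 110 of the 184219 peaks of this strength lay at these 7 genes.

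S100A8 and S100A9 are small calcium-binding proteins of inflammation that are mainly known in the cytoplasm and outside the cell. Here each was carried with a Flag tag, from a retroviral vector, in MCF-10A–ER-Src cells, a non-transformed breast epithelial line with a Src kinase that is switched on by tamoxifen through a fused oestrogen receptor domain. All libraries came from such cells, treated for 24 hours with ethanol (EtOH) as the vehicle or with 1 µM 4-hydroxytamoxifen (TAM), cross-linked with protein cross-linkers and then formaldehyde, and precipitated through the Flag tag. The peak lists numbered 2 for S100A8 in EtOH and 3 each for S100A8 in TAM, S100A9 in EtOH and S100A9 in TAM, all described as biological replicates.

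In the inflammatory feedback loop described for this cell model, NF-κB switches on LIN28B, an RNA-binding protein that blocks maturation of the let-7 microRNAs. Lower let-7 releases its targets, among them the cytokine IL6 and the chromatin protein HMGA2, and IL6 signals through STAT3 to the microRNAs miR-21 and miR-181b, which act on targets that include the tumour suppressor CYLD. CYLD removes ubiquitin chains and restrains NF-κB, and DICER1 cuts microRNA precursors to their mature form. VMP1, an autophagy protein, is encoded on the same strand as MIR21, whose hairpin lies inside the annotated VMP1 gene, near its 3′ end.

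The mature microRNAs of the loop are shown to identify the 2 microRNA genes and the product that LIN28B acts on, with the seed that pairs with targets, bases 2 to 8, in capitals. The sequences are from RefSeq (GRCh38.p14).
miR-21-5p: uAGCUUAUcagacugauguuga
miR-181b-5p: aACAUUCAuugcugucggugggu
let-7a-5p: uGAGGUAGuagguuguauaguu
The seed of miR-181b-5p is shared with miR-181a-5p, whose gene MIR181A1 lies in the same cluster, and the let-7a seed is shared by the 5p products of all 12 let-7 family genes. The hg19 hairpins of MIR21 (72 bases) and MIR181B1 (110 bases) were identical to the RefSeq ones.

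Sites that carry the binding results at 5 of the genes are shown as the 100 bases on both sides of the summit, on the plus strand of hg19. The sites are chr6:105537977-105538177 past the end of LIN28B, chr12:66342558-66342758 in an HMGA2 intron, chr17:57863940-57864140 in a VMP1 intron, chr16:50733771-50733971 upstream of CYLD, and chr14:95565422-95565622 in a DICER1 intron. Capitals mark matches to 8 searched motifs.
LIN28B downstream site: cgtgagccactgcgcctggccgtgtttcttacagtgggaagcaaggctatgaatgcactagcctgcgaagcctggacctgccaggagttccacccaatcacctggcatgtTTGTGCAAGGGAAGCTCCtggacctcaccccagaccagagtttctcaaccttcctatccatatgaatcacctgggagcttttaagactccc
HMGA2 intron site: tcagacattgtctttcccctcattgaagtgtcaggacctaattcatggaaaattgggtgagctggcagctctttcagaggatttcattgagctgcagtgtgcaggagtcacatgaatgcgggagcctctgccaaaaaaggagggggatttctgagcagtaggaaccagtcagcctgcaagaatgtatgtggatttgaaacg
VMP1 intron site: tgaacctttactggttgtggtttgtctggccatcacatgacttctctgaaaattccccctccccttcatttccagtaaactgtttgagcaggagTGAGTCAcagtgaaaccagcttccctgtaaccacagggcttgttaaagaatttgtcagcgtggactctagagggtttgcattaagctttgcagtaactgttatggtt
CYLD upstream site: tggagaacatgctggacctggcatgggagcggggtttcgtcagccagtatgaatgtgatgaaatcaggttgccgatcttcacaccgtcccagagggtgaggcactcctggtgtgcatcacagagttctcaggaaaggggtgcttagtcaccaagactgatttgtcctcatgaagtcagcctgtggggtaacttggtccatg
DICER1 intron site: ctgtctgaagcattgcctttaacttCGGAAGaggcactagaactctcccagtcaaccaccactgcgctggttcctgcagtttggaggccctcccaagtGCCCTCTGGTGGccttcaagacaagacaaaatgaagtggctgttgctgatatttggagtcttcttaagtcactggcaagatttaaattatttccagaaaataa
The LIN28B capitals are a CEBP match (TTGCNNAA, read on the minus strand) joined to an NF-κB match. The VMP1 capitals are an AP-1 match (TGAGTCA) that ends at the summit base, and those of the DICER1 site are an ETS match (CGGAAG) followed by a CTCF match. The HMGA2 intron and CYLD windows held no match.

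Peak lists were much longer after TAM in every replicate. At the strength used, each EtOH library had between 1853 and 4609 peaks and each TAM library between 21518 and 40735. Read numbers were not given in the sources used here, so the sequencing depth behind a peak is unknown and a missing peak says only that none was listed. Across all genes tested, those with a peak in at least 2 libraries, 65.3% of 20149 had significantly more peaks in TAM, so the counts at the switch genes have to be read against that share.

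LIN28B, HMGA2, MIR21, VMP1, CYLD and DICER1 all had more peaks in TAM than in EtOH, while MIR181B1 had none in any library. Of their 110 distinct peaks, 103 came from TAM libraries and 7 from EtOH libraries. The rise was tested with an exact two-sided permutation test over libraries, in which treatment was permuted within each protein over 200 arrangements (smallest possible p = 0.01), with Benjamini-Hochberg adjustment over all genes tested. By this test 6 of 6 tested genes of the set rose, against 65.3% of all genes, and their median difference was 3.21 peaks against 2.33 for all genes. These counts were not divided by window length, which differs between genes, and MIR21 and VMP1 share peaks. The medians therefore do not show a larger rise at the set than elsewhere.

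**Figure D1:**
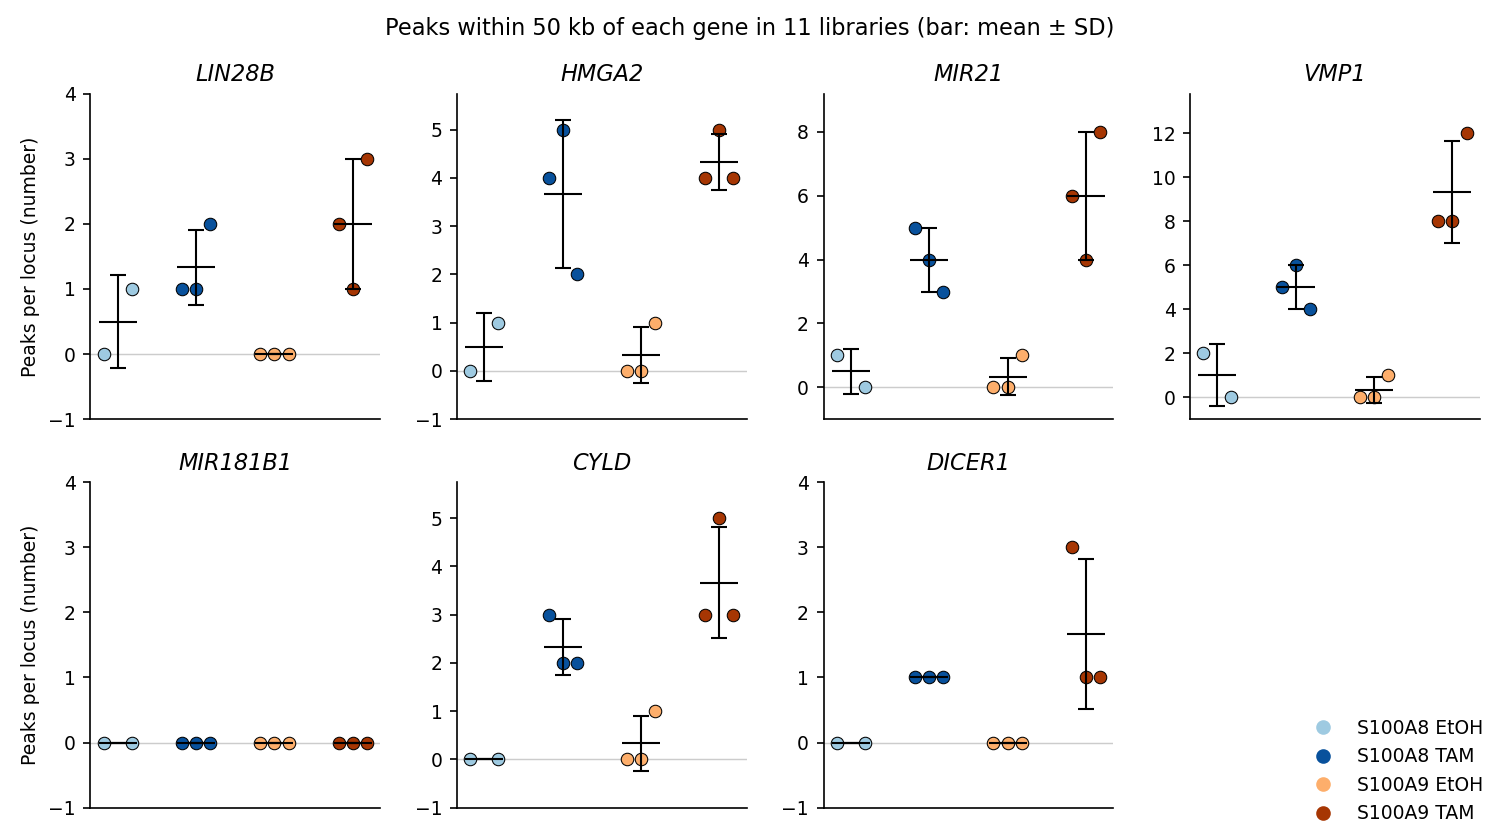
Number of peaks within 50 kb of each gene (vertical axis) in each library, by protein and treatment, with one point per library and bars for the group mean ± SD. TAM points lie above all EtOH points for HMGA2, MIR21, VMP1, CYLD and DICER1, LIN28B has 1 EtOH library level with the lowest TAM libraries, and MIR181B1 stays at 0 in all 11 libraries.

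LIN28B (chr6:105384491-105531207, plus strand) had few peaks, 11 over all libraries. In EtOH it had 0 and 1 peaks with S100A8 and 0, 0 and 0 with S100A9, and in TAM 1, 1 and 2 with S100A8 and 2, 1 and 3 with S100A9. The groups touched, since 1 EtOH library reached the lowest TAM count. The difference of 1.42 peaks passed narrowly (exact permutation p = 0.03, adjusted p = 0.0459). In the same exact permutation test the call was lost when any 1 of the 11 libraries was left out (adjusted p from 0.0511 to 0.108), with peaks of −log10 q of at least 10 (adjusted p = 0.770), with every deposited peak (0.0671) and in a 10 kb window (0.221).

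HMGA2 (chr12:66218240-66360071, plus strand) showed a separation of the treatments without overlap. EtOH libraries held 0 and 1 peaks with S100A8 and 0, 0 and 1 with S100A9, whereas TAM libraries held 4, 5 and 2 with S100A8 and 4, 5 and 4 with S100A9. The difference was 3.58 peaks (exact permutation p = 0.01, adjusted p = 0.0228).

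MIR21 (chr17:57918627-57918698, plus strand) and VMP1 (chr17:57784553-57919616, plus strand) share much of their windows, as the MIR21 hairpin lies inside the outermost ends annotated for VMP1. All 32 MIR21 peaks also counted for VMP1, where they made up 69.6% of 46 peaks, so these genes are not separate observations. For MIR21, EtOH libraries had 1 and 0 peaks with S100A8 and 0, 0 and 1 with S100A9, and TAM libraries had 5, 4 and 3 with S100A8 and 6, 4 and 8 with S100A9. The lowest TAM library, at 3, stood above the highest EtOH library, at 1. VMP1 had 2 and 0 peaks in EtOH with S100A8 and 0, 0 and 1 with S100A9, against 5, 6 and 4 in TAM with S100A8 and 8, 8 and 12 with S100A9. Differences were 4.58 peaks for MIR21 and 6.50 for VMP1 (both exact permutation p = 0.01, adjusted p = 0.0228), and with −log10 q of at least 10 the MIR21 call was lost (adjusted p = 0.0567).

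CYLD (chr16:50775961-50835846, plus strand) went from 0 and 0 peaks in EtOH with S100A8 and 0, 0 and 1 with S100A9 to 3, 2 and 2 in TAM with S100A8 and 3, 5 and 3 with S100A9. DICER1 (chr14:95552565-95624347, minus strand) had no peak in any EtOH library and 1, 1 and 1 in TAM with S100A8 and 3, 1 and 1 with S100A9. Neither gene had overlapping treatments, and the differences were 2.83 and 1.33 peaks (both exact permutation p = 0.01, adjusted p = 0.0228). In the same exact test the CYLD call was lost in a 10 kb window (adjusted p = 0.108), and the DICER1 call with −log10 q of at least 10 (0.156) and with every deposited peak (0.304).

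Every TAM library stood above every EtOH library at 5 of the 7 genes, and at 38.5% of all tested genes. With either S100A8 EtOH replicate left out, the design allows no p below 0.025 and no gene passed (smallest adjusted p 0.0518 and 0.0511). Within 1 protein the exact permutation test cannot go below 0.2 for S100A8 (3 libraries against 2) or 0.1 for S100A9 (3 against 3), and HMGA2, MIR21, VMP1, CYLD and DICER1 reached those values for both proteins.

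MIR181B1 (chr1:198828002-198828111, minus strand) had no peak of this strength within 50 kb in the 11 libraries and was therefore not tested. No peak in any library was also the case for 25.1% of the 3029 microRNA genes considered. The nearest passing summit lay 70.1 to 159 kb away in TAM and 159 to 1677 kb away in EtOH. Weaker deposited peaks in the window numbered 0 and 0 in S100A8 EtOH, 3, 0 and 1 in S100A9 EtOH, 1, 0 and 1 in S100A8 TAM, and 0, 1 and 3 in S100A9 TAM, without a separation of the treatments. Its host transcript MIR181A1HG, chosen after its values were seen, had 1.33 ± 1.37 peaks in TAM (SD, n = 6) and 0 in all 5 EtOH libraries (adjusted p = 0.142, exact permutation test).

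Relative to the length of its own peak list, each library gave a different picture. Per 10000 peaks of a library, no switch gene passed in TAM against EtOH, and 0% of all genes passed. In the same exact permutation test, 3278 genes were higher and 1103 lower at an unadjusted p under 0.05. With 200 arrangements an adjusted p of 0.05 needs at least 20% of all genes at the smallest p, so the absence of calls is limited by the design. DICER1 had 0.245 to 1.18 peaks per 10000 in TAM and none in EtOH (difference 0.51). Its treatments could not overlap on this scale because its EtOH counts were all 0, and with every deposited peak the difference was −0.369.

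The other switch genes overlapped between treatments on that scale. LIN28B had 0.340 to 0.929 peaks per 10000 in TAM and 0 to 2.17 in EtOH, where the 1 EtOH library with a peak was above every TAM library (difference 0.06, exact permutation p = 0.99). For HMGA2 the values were 0.929 to 2.08 in TAM and 0 to 2.18 in EtOH (p = 0.34 by the same exact test). MIR21 and VMP1 also overlapped, with differences of 0.85 and 1.06 per 10000 (exact permutation p = 0.15 and 0.31), as did CYLD, with 0.77 (p = 0.12). Leaving out 1 library moved the MIR21 difference between 0.27 and 1.43 and the VMP1 difference between −0.0959 and 2.22, the negative value being that without S100A8 EtOH replicate 2. When only the 1853 strongest peaks of each library were kept, the differences in peaks per locus were −0.25 for LIN28B, 0 for HMGA2, MIR21 and DICER1, 0.50 for VMP1 (exact permutation p = 0.3) and 0.67 for CYLD (exact permutation p = 0.12), and no gene was called. The part of list length in the rise at the switch genes cannot be told apart from treatment in these counts.

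S100A8 and S100A9 did not differ in a detectable way at any switch gene. S100A9 minus S100A8, averaged over treatments, ran from 0.083 peaks at LIN28B to 1.83 at VMP1, and the exact permutation test with protein permuted within treatment gave adjusted p = 1 for all 6, with 0 of 6 under an unadjusted p of 0.05 and 0% of all genes called (76 higher and 66 lower at an unadjusted p under 0.05). At VMP1 the treatment difference was 4 peaks with S100A8 and 9 with S100A9. The difference between them, 5 peaks, had an exact permutation p of 0.04 and an adjusted p of 1.00. With every deposited peak the VMP1 counts in TAM were 27, 19 and 16 with S100A8 and 17, 20 and 25 with S100A9, and they overlapped. The S100A9 TAM libraries had 25494, 23994 and 40735 peaks and those of S100A8 29381, 24117 and 21518, and the part of that difference in the VMP1 counts was not tested.

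Peak density per length of window was also compared between the genes. In TAM, MIR21 had 5.00 ± 1.79 peaks per 100 kb (SD, n = 6), VMP1 3.05 ± 1.22, CYLD 1.88 ± 0.685, HMGA2 1.65 ± 0.453, DICER1 0.776 ± 0.475 and LIN28B 0.676 ± 0.331. MIR21 stood above VMP1, and VMP1 above CYLD, in 6 of 6 TAM libraries. The MIR21 window lies inside that of VMP1, so the first of these sets a part against the whole that holds it. It does not separate 2 genes. CYLD and HMGA2, and likewise DICER1 and LIN28B, differed by less than their spread between libraries. Within libraries, CYLD stood above HMGA2 in 5 of 6, HMGA2 above DICER1 in 5 of 6 and DICER1 above LIN28B in 4 of 6. Against a median of 1.85 peaks per 100 kb over all tested genes, MIR21 was at the 88.6th percentile, VMP1 at the 71.4th, CYLD at the 50.6th, HMGA2 at the 44.8th, DICER1 at the 18.8th and LIN28B at the 16.0th.

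**Figure D2:**
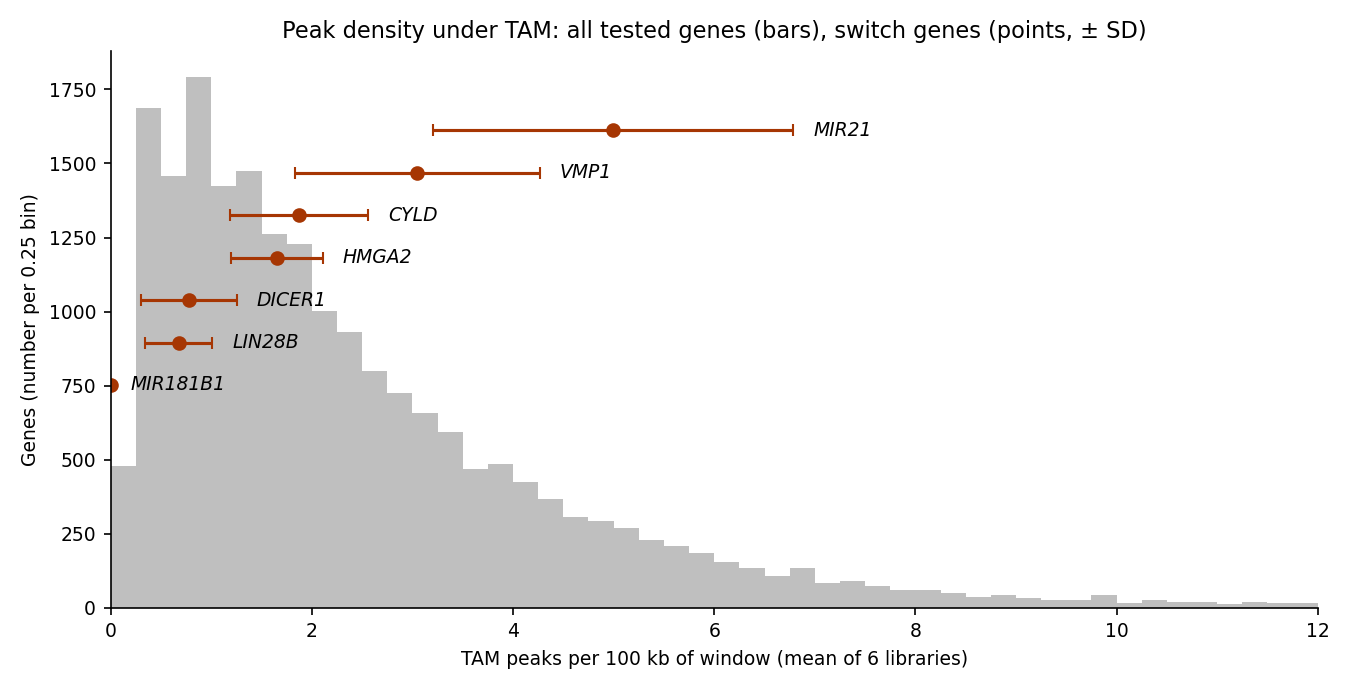
Distribution of TAM peak density over all tested genes (grey bars, number of genes against peaks per 100 kb of window, axis cut at 12) with the switch genes as points at their mean ± SD over the 6 TAM libraries, placed at arbitrary heights. MIR21 and VMP1 lie to the right of the median of 1.85, CYLD and HMGA2 near it, and DICER1 and LIN28B to the left, while MIR181B1 is at 0 and was not among the tested genes.

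Promoters were taken as 1500 bp before to 250 bp after any annotated start. For microRNA genes this is the start of the hairpin and not that of the primary transcript, so their transcript promoters were not examined. HMGA2 was the only gene of the set with a promoter peak in every TAM library, with S100A8 in 3 of 3 and with S100A9 in 3 of 3, and it had none in the 5 EtOH libraries. Passing EtOH peaks lay just outside this window, 0.56 kb past a start in S100A8 EtOH replicate 2 and 0.663 kb past one in S100A9 EtOH replicate 3, and weaker peaks lay within 0.164 kb of a start in all 5 EtOH libraries. The difference had an exact permutation p of 0.01, the smallest possible, and an adjusted p of 0.179, the lowest of any gene. Since 0% of 11497 genes passed even at the smallest p, the absence of calls is limited by the design. At an unadjusted p under 0.05 in this test, 2495 genes were higher, including 1 of the 4 switch genes tested. A promoter peak in every TAM library was found for 13.5% of all genes.

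CYLD had a promoter peak in all 3 S100A9 TAM libraries and in none of the S100A8 TAM libraries, 2 of which had a weaker peak there. VMP1 had one in 2 S100A9 TAM libraries, at a start it shares with the divergent gene PTRH2. DICER1 had one in 1 TAM library of each protein, and MIR21 had a peak at its hairpin in 1 S100A8 TAM library. LIN28B and MIR181B1 had no promoter peak, and no EtOH library had one of the set strength at any of the 7 genes. Weaker EtOH peaks lay within 0.14 kb of a DICER1 start in S100A8 replicate 2 and in S100A9 replicates 1, 2 and 3. At the start shared by VMP1 and PTRH2, 2 EtOH libraries had a weaker peak. S100A8 EtOH replicate 2 had one 0.594 kb before a CYLD start. In all, 5 of 7 genes had a promoter peak in at least 1 library, MIR21 only at its hairpin start, as did 56.4% of all genes. At least 1 peak anywhere in the window in every TAM library was found for 6 of 7 genes and for 60.3% of all genes.

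**Figure D3:**
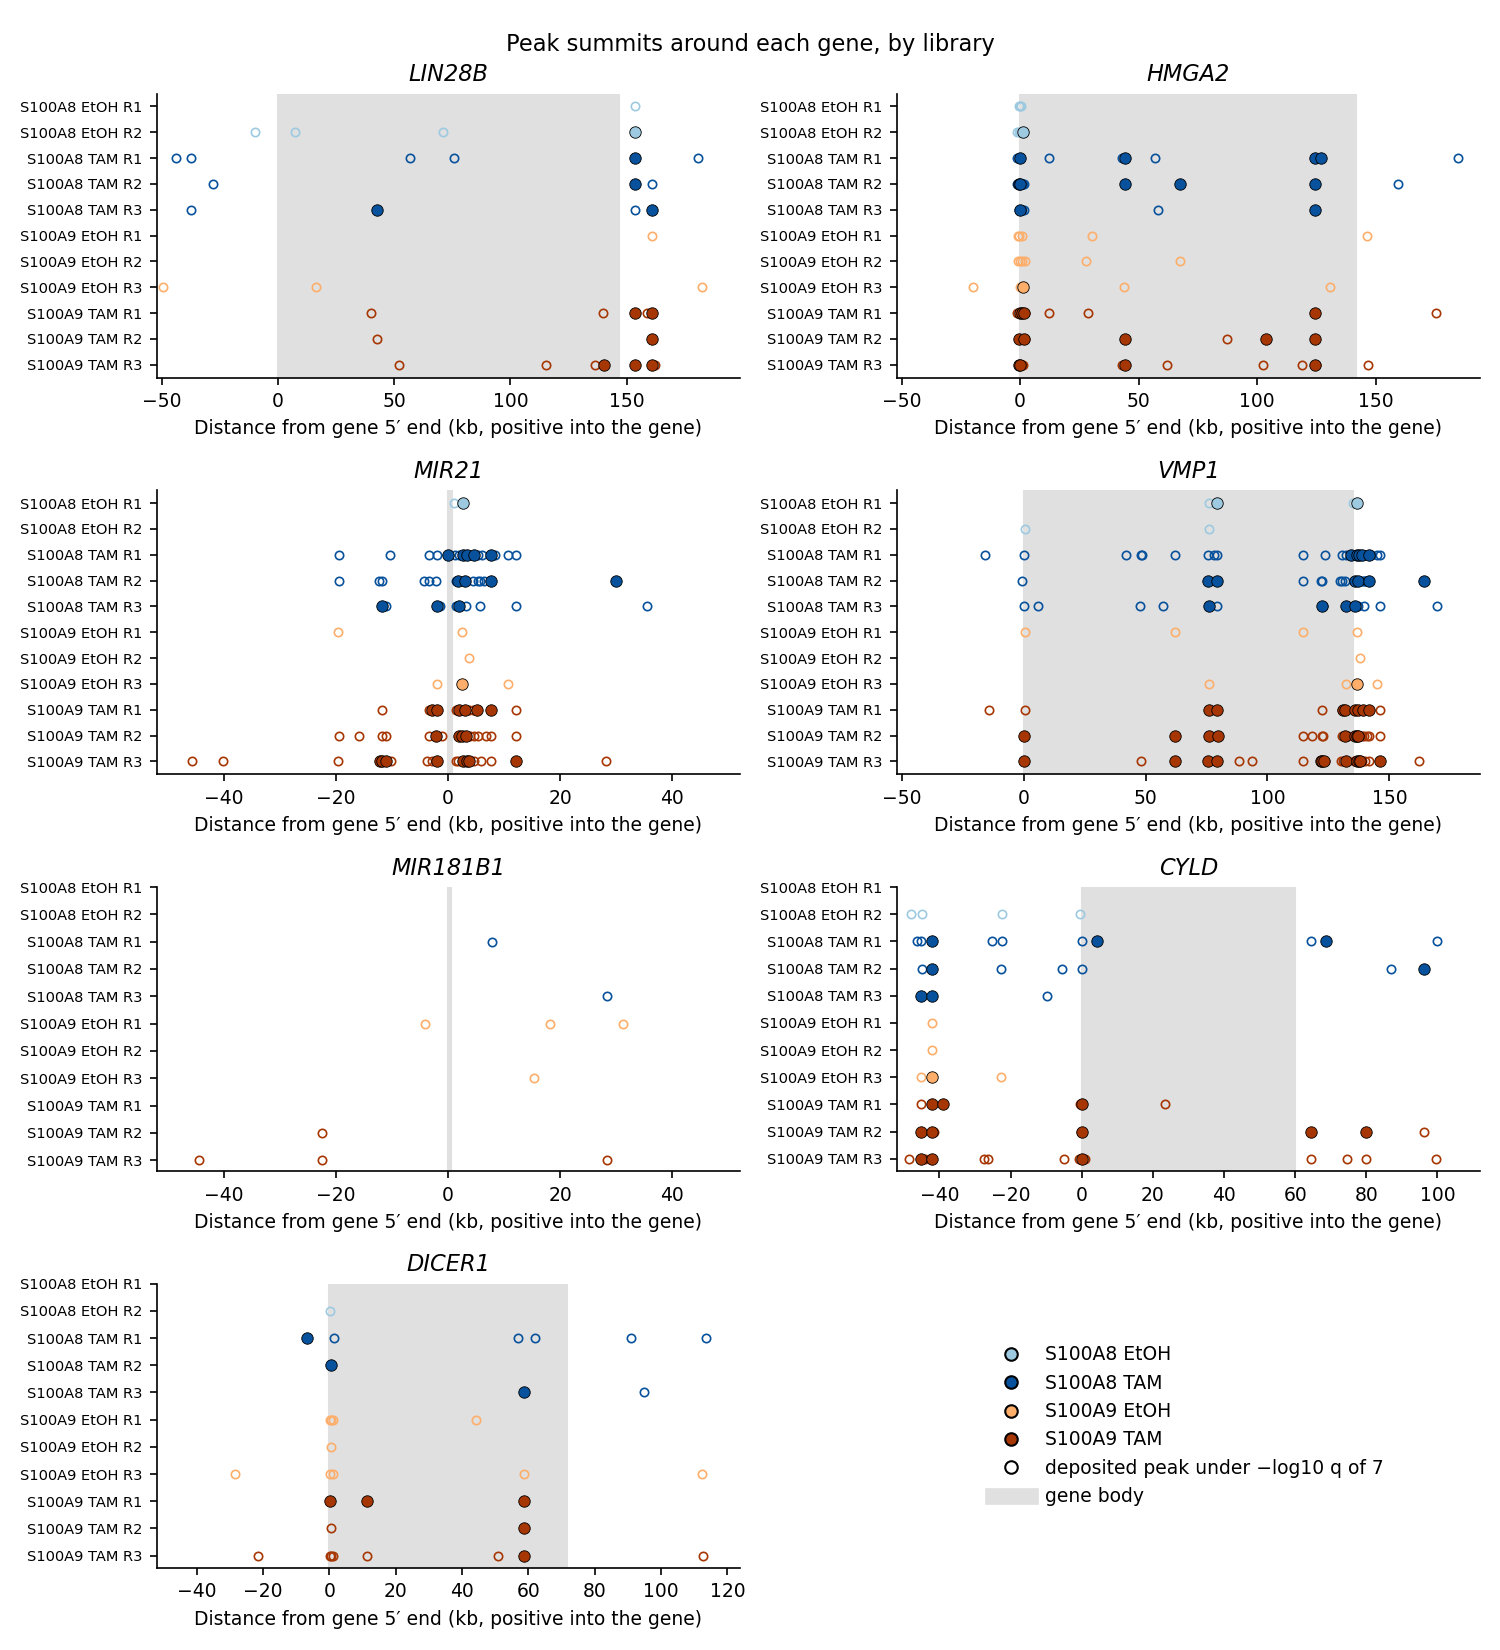
Summits of peaks around each gene, as distance in kb from the gene's 5′ end (horizontal axis) for each of the 11 libraries (rows), filled where −log10 q was at least 7 and open where it was lower, with the gene body in grey. Filled points recur past the 3′ end of LIN28B, at the start and 3′ part of HMGA2, at 2 positions inside VMP1 and around MIR21, and upstream of CYLD.

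To compare positions between libraries, peaks found in at least 2 replicates of a group were merged, which gave 30322 sites in all and 20 at the switch genes. Of these 20 sites, 16 had no peak of the set strength in any EtOH library, and 68.9% of all sites had none. Weaker EtOH peaks were nevertheless listed at 12 of the 16, and at 49.7% of all sites without an EtOH peak. Only 2 sites had a peak in all 6 TAM libraries, against 14.3% of all sites. Both proteins had a peak in at least 2 TAM replicates at 8 sites, against 42.8% of all sites.

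All 20 sites entered through TAM groups, since none had a peak in 2 replicates of an EtOH group, so a test of treatment over these sites is conditioned on its outcome and is not used for them. Over all sites it called 0%, with a smallest adjusted p of 0.213 by the exact permutation test. That value belongs to the smallest possible p of 0.01, so this absence of calls is also limited by the design. Fold enrichment, the ratio of ChIP to input signal that the peak caller gives at the summit, ranged from 5.07 to 19.9 over the 110 peaks, with a median of 7.68.

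LIN28B had 2 sites, both beyond its 3′ end and neither in the gene. The nearer one, 6870 bp past the end, was called in S100A8 EtOH replicate 2 at 8.52-fold, in S100A8 TAM replicates 1 and 2 at 6.90-fold and 5.91-fold, and in S100A9 TAM replicates 1 and 3 at 7.43-fold and 9.71-fold. EtOH and TAM enrichments overlapped there. The farther one, 14155 bp past the end, lay in BVES, a gene for a cell adhesion membrane protein, and was called in S100A8 TAM replicate 3 at 6.64-fold and in S100A9 TAM at 6.78-fold, 11.3-fold and 12.2-fold. No EtOH library had a called peak at this second site, although S100A9 EtOH replicate 1 had a weaker one at 6.46-fold. For both sites the nearest start of a protein-coding gene was that of BVES and not that of LIN28B. The 2 remaining LIN28B peaks reached the set strength in 1 TAM library each, and a weaker peak overlapped each of them in 1 further TAM library.

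HMGA2 had 5 sites, of which 2 lay at its promoter. The summit of the outer one was 286 bp before the nearest start and it was called in S100A8 TAM replicate 2 at 6.89-fold and in S100A9 TAM replicates 2 and 3 at 7.52-fold and 7.46-fold. The inner one, 74 bp past a start, was called in S100A8 TAM at 9.40-fold, 6.83-fold and 6.06-fold and in S100A9 TAM replicates 1 and 3 at 8.30-fold and 7.57-fold. Neither was called in EtOH, although weaker EtOH peaks were listed in 4 and 3 of 5 libraries. A further site in an intron, 120877 bp from the nearest HMGA2 start, was called in all 6 TAM libraries, with S100A8 at 6.78-fold, 10.8-fold and 9.57-fold and with S100A9 at 6.32-fold, 9.87-fold and 12.3-fold. It had no listed peak of any strength in EtOH, and it was the only one of the 20 sites called in all TAM and no EtOH libraries.

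The 5 sites around MIR21 lay from 1967 bp before to 7663 bp after the hairpin start, and 4 of them were not called in EtOH. The upstream site lay in an exon of a VMP1 transcript, 1348 bp past an internal VMP1 start. It was called in S100A8 TAM replicate 3 at 6.73-fold and in S100A9 TAM at 7.29-fold, 6.94-fold and 9.74-fold. S100A9 EtOH replicate 3 had a weaker peak there at 6.34-fold. The site 3312 bp downstream was called in S100A8 TAM replicates 1 and 2 at 11.4-fold and 7.88-fold and in S100A9 TAM at 7.43-fold, 11.6-fold and 8.37-fold, with no peak of any strength in EtOH. The site 2494 bp downstream was the exception, with S100A8 EtOH replicate 1 at 7.09-fold and S100A9 EtOH replicate 3 at 6.78-fold beside 3 TAM libraries at 5.31-fold to 10.8-fold.

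VMP1 had 4 further sites in or at its body. One, 75903 bp from its 5′ end, was called in S100A8 TAM replicates 2 and 3 at 11.3-fold and 14.4-fold and in S100A9 TAM at 12.2-fold, 7.16-fold and 8.24-fold, and in no EtOH library. It had weaker EtOH peaks in 3 libraries, at 5.08-fold and 6.98-fold with S100A8 and 3.95-fold with S100A9. The next, 79487 bp from the 5′ end, had the AP-1 match printed above and was called at 15.4-fold in S100A8 TAM replicate 2, at 14.8-fold, 7.36-fold and 5.31-fold in S100A9 TAM, and at 8.59-fold in S100A8 EtOH replicate 1. The start site shared with PTRH2, a mitochondrial peptidyl-tRNA hydrolase, was among the weaker ones, at 5.80-fold and 6.80-fold in S100A9 TAM replicates 2 and 3.

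CYLD had the most enriched site of the set, 42090 bp upstream of its start and 2820 bp into NOD2, a sensor of bacterial cell wall fragments that signals to NF-κB. It was called with S100A8 in TAM at 9.30-fold, 9.85-fold and 15.02-fold, with S100A9 in TAM at 17.3-fold, 18.8-fold and 19.9-fold, and in S100A9 EtOH replicate 3 at 9.32-fold. This EtOH value lay below all 3 TAM values of S100A9 and within the range of those of S100A8. S100A9 EtOH replicates 1 and 2 had weaker peaks there, at 6.55-fold and 5.83-fold. A second site lay 326 bp before the NOD2 start. The site at the CYLD start was called with S100A9 in TAM only, at 8.91-fold, 7.69-fold and 7.04-fold. DICER1 had 1 site, in an intron 58825 bp from its 5′ end and 6218 bp from the nearest internal start. It was called in S100A8 TAM replicate 3 at 7.04-fold and in S100A9 TAM at 7.20-fold, 7.99-fold and 6.46-fold. S100A9 EtOH replicate 3 had a weaker peak there at 6.64-fold, within the range of the TAM values.

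**Figure D4:**
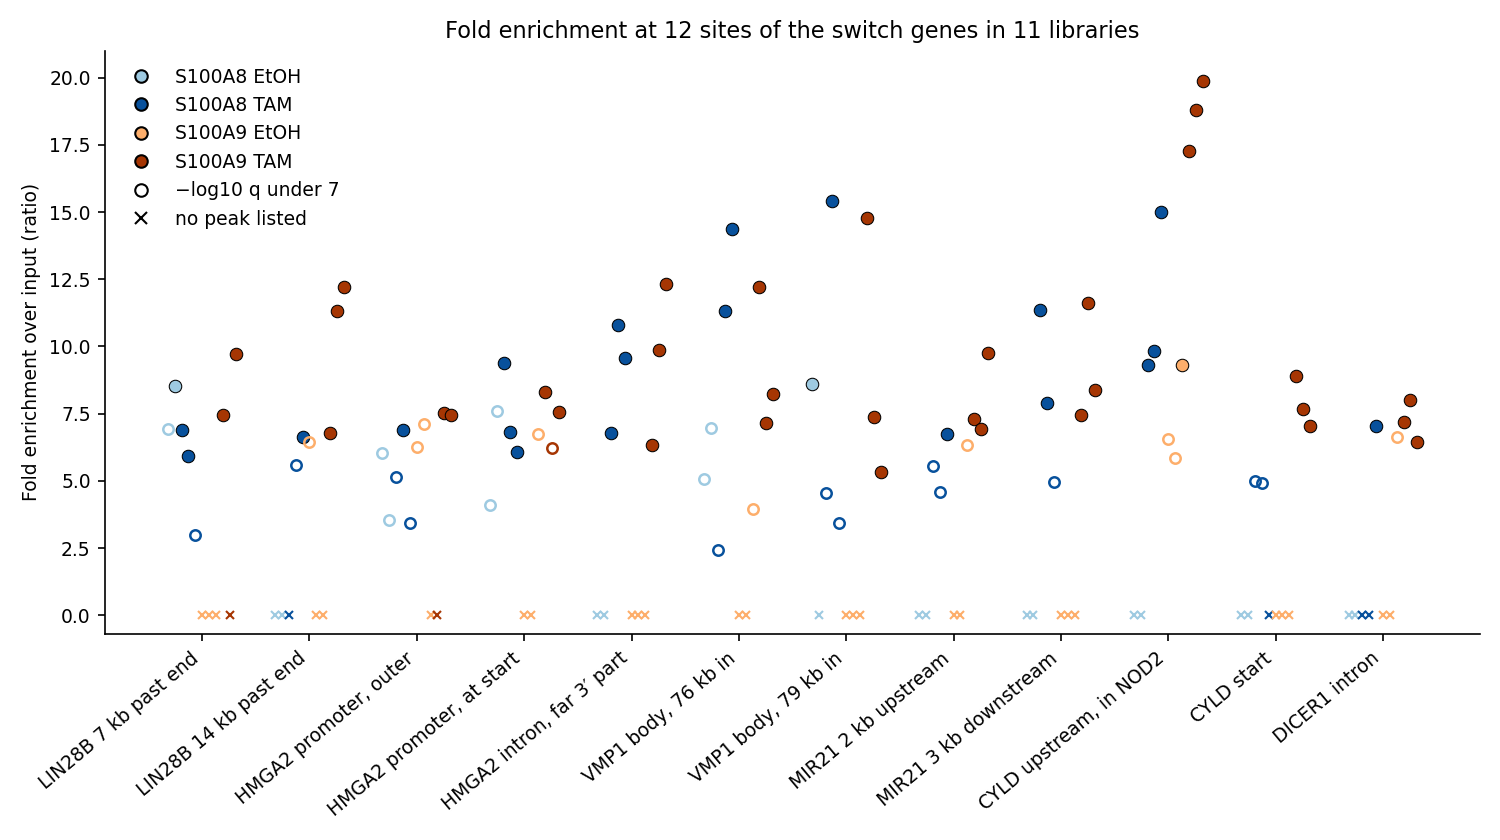
Fold enrichment over input (vertical axis) at 12 sites of the switch genes, with one mark per library coloured by protein and treatment, filled where −log10 q was at least 7, open where it was lower, and crosses at 0 where no peak was listed. The site upstream of CYLD reaches 19.9-fold in S100A9 TAM, and filled EtOH points appear at 3 of the 12 sites.

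Across the 20 sites, 4 were called with S100A9 only and 0 with S100A8 only, namely an HMGA2 intron site, the PTRH2 and VMP1 start, a VMP1 intron site and the CYLD start. Of all sites 15.6% were called with S100A9 only and 5.44% with S100A8 only. Weaker S100A8 peaks were listed at all 4 of these sites, for example at 6.41-fold and 5.90-fold in S100A8 TAM replicates 2 and 3 at the HMGA2 intron site. For 5 of the 20 sites the nearest start of a protein-coding gene belonged to a gene outside the set.

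Known motifs were searched without mismatch within 100 bp of the summit on both strands. AP-1 (TGAGTCA) occurred at 5 of 20 sites, against 25.8% of all 30322 sites, namely 3 VMP1 sites, 1 HMGA2 intron site and the site 2015 bp downstream of MIR21. ETS (CGGAAG) occurred at 3 against 13.3%, CEBP (TTGCNNAA) at 2 against 11.8%, NF-κB at 2 against 7.61% and CTCF at 1 against 11.1%. The STAT motif (TTCCNGGAA), KLF/SP1 (CCCCGCCC) and CREB (TGACGTCA) occurred at none, against 1.27%, 10.5% and 1.18%. A match is a description of the letters only.

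Other genes of the loop were counted in the same way, against the 65.3% of all genes that rose. Of 10 other genes of the switch, 9 were tested and 6 rose in TAM, among them STAT3, the transcription factor activated by IL6 signalling, with 7.0 ± 2.37 peaks in TAM (SD, n = 6) and 1.00 ± 0.707 in EtOH (n = 5) (adjusted p = 0.0228, exact permutation test).

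Of the 12 let-7 genes, several of which share a window, 9 rose, with MIRLET7G at 3.50 ± 1.97 against 0.600 ± 0.894 (adjusted p = 0.0459, exact permutation test), while MIRLET7I, at 2.17 ± 1.17 against 0.400 ± 0.548, did not pass (adjusted p = 0.0570). Of 12 genes of microRNA biogenesis and let-7 decay, 9 rose, including AGO2, the slicing Argonaute, at 8.33 ± 1.63 against 2.00 ± 2.00 (adjusted p = 0.0228), whereas DROSHA, which cuts primary microRNAs in the nucleus, had 0.333 ± 0.516 against 0 (adjusted p = 0.608, both exact permutation tests). Of 4 further let-7 targets 3 rose, with HMGA1, a relative of HMGA2, at 4.67 ± 0.516 against 0.400 ± 0.548. None of the genes in these lists fell, and none passed per 10000 peaks or between the proteins.

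Genes with counts most like LIN28B could not be narrowed to 3. Over the 11 libraries 9 genes tied at a Euclidean distance of 1 peak, namely FAM114A1, MIR1470, MIR3125, PERP, PGA3, PGLYRP2, RASAL3, SAMD7 and TRIB2, and at counts of 0 to 3 such likeness says little.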

How the data were processed

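Flag ChIP-seq peak lists of S100A8 and S100A9 were analysed. Per the labels and the study's methods, the authors aligned reads by Bowtie2 to hg19, retained those with a unique position and called peaks for each replicate with MACS2 against input (versions not given in the sources used here). The deposited fold enrichment is a ratio of ChIP to input, the deposited −log10 p and −log10 q give the caller's confidence, the deposited score is a rescaled −log10 q and was only read, and positions are those the authors deposited. Inputs and Pol II libraries were not analysed here. Lists were restricted to chromosomes 1 to 22 and X and to −log10 q of at least 7. Genes were from GENCODE release 44 lifted to hg19. Exact permutation tests over libraries were computed in Python 3.11.15 (numpy 2.4.6, pandas 2.3.3) and checked on simulated data. Sites merged overlapping peaks (at least 1 bp) of 2 or more replicates. The 7 genes, the lists and the rules were chosen with earlier results of these data known. Named were the 7 genes, each promoter site, up to 3 other sites a gene and up to 2 genes a list; windows overlapping an untranslated exon were not printed, and the VMP1 intron window was shown in place of one, chosen after its values were seen. Alternatives changed the q cut, the number of peaks, the window, the overlap rule, the replicate block and single libraries. One listed gene and some windows chosen by the rule are not reported here.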

Additional observations from a re-analysis of the deposited data

Results flagged for a closer look

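One result was picked out because the difference between the 2 proteins' treatment effects had an unadjusted p under 0.05. That exact test permuted protein within treatment, so it also responds to a plain difference between the proteins within a treatment. At VMP1 the rise in peaks from EtOH to TAM was larger with S100A9 than with S100A8 by 5 peaks (9 against 4; exact permutation p = 0.04, adjusted over all genes tested 1.00). With adjustment the difference did not pass. With every deposited peak the TAM counts were 27, 19 and 16 for S100A8 and 17, 20 and 25 for S100A9, and S100A9 minus S100A8 over both treatments was 0, and −0.167 with equal numbers of peaks.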

How the results depend on the processing

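The number of switch genes that rose in TAM was 6, and it was 3 with −log10 q of at least 10 (LIN28B, MIR21 and DICER1 were lost), 0 with the 1853 strongest peaks of each library, 0 to 5 without single libraries (0 without either S100A8 EtOH replicate, whose omission leaves no p below 0.025), 4 with every deposited peak (LIN28B and DICER1 lost) or a 10 kb window (LIN28B and CYLD lost) and 6 with a 100 kb window or any overlapping base. Counts over all genes tested moved from 13161 (65.3%) to 6102 (32.8% of 18610) at −log10 q of 10 and to 3745 (22.4% of 16719) in a 10 kb window. The share was 68.7% with every deposited peak, 81.6% with a 100 kb window and 65.4% with any overlapping base. It was 0% with the 1853 strongest peaks and without either S100A8 EtOH replicate. Without any other single library it ran from 44.7% to 51.1%. No switch gene passed per 10000 peaks or between proteins under any alternative run. With the replicate number as a block, 0 of 6 passed (smallest p 0.0625, adjusted 0.105). The exact test cannot go below 0.0625 in that design, so this outcome was fixed in advance. Same-numbered EtOH and TAM libraries had r from −0.0440 to 0.121 over 5 pairs, and differently numbered ones from −0.151 to 0.0685. The highest values, 0.107 and 0.121, were those of S100A9 replicates 2 and 3. The numbers were not taken as a pairing, which these values do not settle. Directions reversed as follows. TAM minus EtOH was −0.25 at LIN28B with equal numbers of peaks. Per 10000 peaks with every deposited peak it was −0.173 at LIN28B, −1.40 at HMGA2 and −0.369 at DICER1, and without single libraries it ran from −0.481 to 0.604 at LIN28B and from −0.0959 to 2.22 at VMP1. S100A9 minus S100A8 was −0.583, −0.25 and −0.25 at LIN28B with every deposited peak, equal numbers of peaks and a 10 kb window, −0.167 at VMP1 with equal numbers of peaks, and without single libraries −0.167 to 0.333 at LIN28B and −0.167 to 0.583 at HMGA2. The cause was not tested. Peak lists hold no values where no peak was listed, so a weaker signal below the caller's limit cannot be seen.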
